A study of Macaca mulatta and Mus musculus with 5 samples.

Results

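The NR4A genes encode 3 orphan nuclear receptors, NR4A1 (also called NUR77), NR4A2 (NURR1) and NR4A3 (NOR1). They were taken by symbol from 5 single-cell tables, as Nr4a1, Nr4a2 and Nr4a3 among 31017 genes of a mouse table and as NR4A1, NR4A2 and NR4A3 among 13469 to 14062 genes of each of 4 macaque tables. Every table listed all 3. The study's title concerns control of early B-cell development in the meninges, the membranes around the brain, by antigens of the central nervous system. It used 3′-end 10x RNA sequencing, in which each captured RNA molecule carries a unique molecular identifier (UMI), of cells sorted from 2 channels of meninges and 2 channels of spleen from Chinese rhesus macaques (female, 4 to 8 years old, 8000 cells loaded per channel) and from 1 library of mouse meninges. The mouse library pooled hashtagged cells of male C57BL/6 animals of 2, 21 and 48 days, loaded at 30000 cells, and the ages were not separated here. The labels name no treatment and no engineered allele in any group. The labels do not say how many animals the channels came from or whether channels shared an animal. P-values between tissues thus measure only the spread between channels, which may be technical. P-values between kinds of cell rest on sums from the same channels with 1 shared estimate of the spread, and do not measure a spread between animals.

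NR4A receptors bind DNA as monomers or dimers and act without a known classical ligand, because their ligand pocket is filled by side chains of the protein itself. Their activity is set largely by how fast their genes are switched on, which happens soon after signals such as antigen receptor engagement, calcium or cyclic AMP. In mouse lymphocytes a reporter of Nr4a1 is widely used to read recent antigen receptor signalling. Mouse B cells use the family to restrain responses to antigen that comes without co-stimulation, mouse T cells use it in exhaustion and regulatory T-cell programmes, and Nr4a1 is needed for a class of mouse patrolling monocytes. NR4A2 is best known for its role in midbrain dopamine neurons.

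How closely the members resemble each other matters for telling their reads apart, and the first zinc finger of the DNA-binding domain, their most conserved kind of stretch, shows it. The mouse coding sequences are printed here with the positions where the 3 genes are not all identical in capitals, from GENCODE M21 transcripts on GRCm38.
Nr4a1: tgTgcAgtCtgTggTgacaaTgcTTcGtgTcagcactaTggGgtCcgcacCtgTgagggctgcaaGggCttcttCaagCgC
Nr4a2: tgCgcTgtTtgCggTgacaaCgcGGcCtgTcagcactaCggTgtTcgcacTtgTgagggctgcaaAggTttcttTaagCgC
Nr4a3: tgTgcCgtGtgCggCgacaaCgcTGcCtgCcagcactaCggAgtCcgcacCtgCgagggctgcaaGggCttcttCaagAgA
The window held 81 bases, of which 61 were identical in all 3 genes and 20 were not. Nr4a1 and Nr4a3 matched at 68 bases (84.0%), and Nr4a2 matched each of the others at 66 bases (81.5%). The Nr4a1 window lies at chr15:101270892-101271738 on the plus strand, across exons 2 and 3 of 7. The Nr4a2 window lies at chr2:57110764-57111653 on the minus strand, across exons 3 and 4 of 8. The Nr4a3 window lies at chr4:48052124-48055932 on the plus strand, also across exons 3 and 4 of 8. The genes themselves span chr15:101254269-101274795, chr2:57106830-57124003 and chr4:48045153-48086447. A 3′-end library reads mainly the last part of a transcript, and in the last 500 bases of the annotated mouse transcripts the longest run shared by any pair was 9 bases. Over whole transcripts the longest shared run was 27 bases, between Nr4a2 and Nr4a3. Macaque sequences were not used here.

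After filters on genes and mitochondrial UMIs, 13440 mouse cells were kept, with 4068 and 4308 cells in the meningeal channels and 5839 and 6783 in the spleen channels. Median UMIs per barcode before the filters were 6309 in mouse, 4096 and 4034 in macaque meninges and 2397 and 2665.5 in spleen. Cell classes were gated on raw UMIs of marker genes, and no NR4A gene was in any gate. Between 32.7% and 38.4% of the cells of a library fell in no gate, of which 53.8% to 60.5% held excluded marker genes of at least 2 lineages. The labels write the sort with dashes after CD45, CD11b and, in macaque, CD3. Whether those dashes mean negative is not clear, since PTPRC, the gene of CD45, was found in 82.2% to 87.9% of the cells of each library. RAG1, RAG2 and DNTT, which mark early B stages, were not listed in the spleen tables. Libraries shared 4 to 28 cell barcodes in any pair. Levels are given as counts per 1000000 UMIs (CPM) of the summed class, and since each UMI is counted once per molecule they do not scale with gene length.

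In mature B cells of macaque all 3 NR4A genes were far higher in meninges than in spleen. NR4A1 reached 533 and 564 CPM in the meningeal channels, against 38.4 and 29.3 CPM in the spleen channels. NR4A2 reached 507 and 553 CPM in meninges, against 13.8 and 11.4 CPM in spleen. NR4A3 reached 260 and 301 CPM in meninges, against 5.08 and 3.06 CPM in spleen. Both meningeal channels lay above both spleen channels for every member. How many of all genes did so was not counted. These sums came from 910 and 1038 meningeal cells and from 2883 and 3348 spleen cells. The log2 fold change of meninges over spleen was 4.17 ± 0.11 for NR4A1 (edgeR adjusted p = 1.41e-19), 5.55 ± 0.12 for NR4A2 (edgeR adjusted p = 3.53e-21) and 6.27 ± 0.15 for NR4A3 (edgeR adjusted p = 3.17e-20; SE, 2 channels per tissue). By this fold NR4A3 ranked 19th, NR4A2 ranked 26th and NR4A1 ranked 59th of 10143 genes tested. Of those genes 39.6% passed the threshold of adjusted p under 0.05, 21.7% higher in meninges and 17.9% lower.

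**Figure D1:**
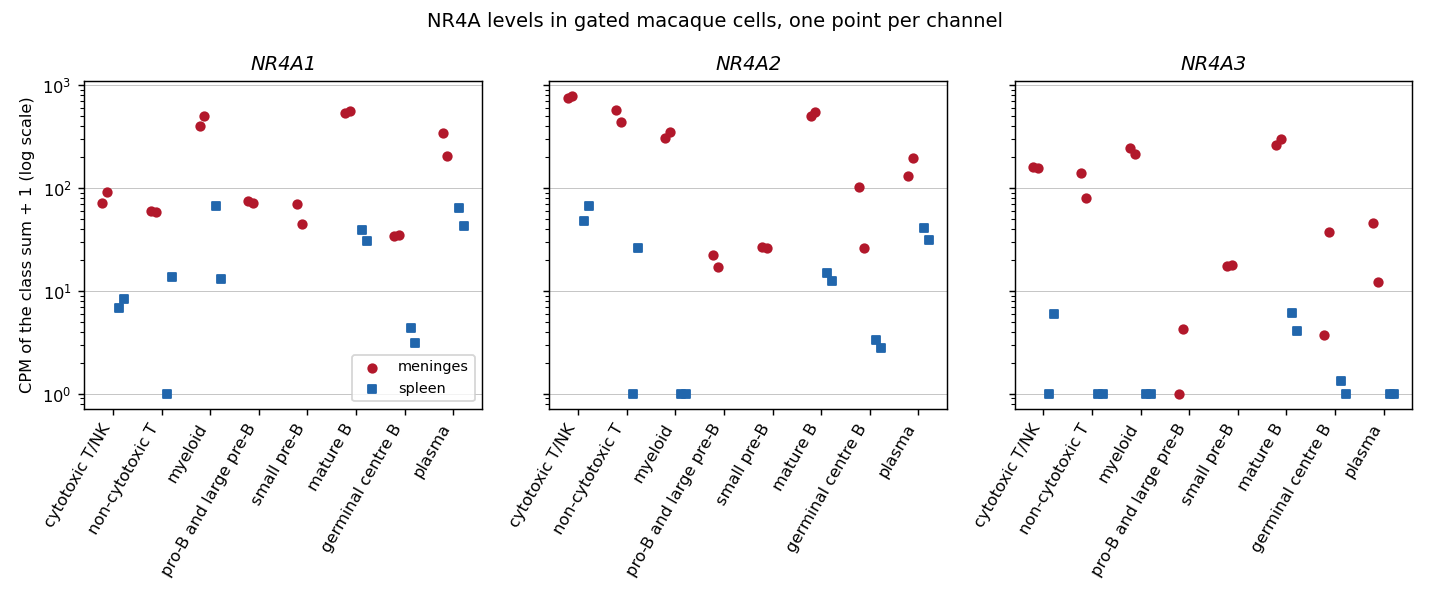
NR4A levels in macaque cell classes. Each point is the CPM plus 1 (log scale) of 1 channel's class sum, meninges as circles left of spleen as squares, for channels with at least 5 cells of the class; in mature B cells the meningeal points lie at 260 to 564 CPM over the 3 genes and the spleen points at 3.06 to 38.4 CPM.

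Cytotoxic T/NK cells, gated on NKG7 or GZMB beside T and NK genes, differed between the tissues in the same direction. NR4A1 was at 71.4 and 90.9 CPM in meninges, against 5.89 and 7.37 CPM in spleen. NR4A2 was at 746 and 788 CPM in meninges, against 47.1 and 66.3 CPM in spleen. NR4A3 was at 159 and 154 CPM in meninges, while in spleen channel 1 it had no UMI and in spleen channel 2 it was at 4.91 CPM, from 4 UMIs of 1 cell. The meningeal channels again lay above both spleen channels for every member, a split not counted over all genes. The log2 fold change was 3.83 ± 0.31 for NR4A1 (edgeR adjusted p = 1.07e-07), 3.98 ± 0.14 for NR4A2 (edgeR adjusted p = 8.70e-12) and 6.08 ± 0.32 for NR4A3 (edgeR adjusted p = 6.22e-10). The spleen sums held 10 UMIs of NR4A1 and 4 of NR4A3. For these genes the SE, taken from the test statistic, can understate the counting error of so few UMIs. Of 9025 genes tested 27.1% passed, 16.1% higher and 10.9% lower. The meningeal NR4A1 level lay near the 69.4 and 44.1 CPM of meningeal small pre-B cells. How much of the NR4A1 in either class was free RNA from outside the cells was not tested. The NR4A1 difference is therefore not assigned to expression by cytotoxic T/NK cells. The cells numbered 1231 and 1294 in meninges, against 315 and 403 in spleen.

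The tissue difference of NR4A2 was smaller in cytotoxic T/NK cells than in mature B cells. The difference between the 2 log2 fold changes was −1.50 ± 0.24 (edgeR adjusted p = 1.39e-05). It came from 1 model, blocked by channel, of the class sums with at least 50 cells in every channel of their tissue. In this contrast 7.00% of 10441 genes passed, 3.98% higher and 3.02% lower. These were 416 higher and 315 lower, and 293 higher and 437 lower with RLE size factors. In spleen alone NR4A2 was at 47.1 and 66.3 CPM in cytotoxic T/NK cells, against 13.8 and 11.4 CPM in mature B cells. The same differences were −0.29 ± 0.51 for NR4A1 (edgeR adjusted p = 0.847) and −0.13 ± 0.92 for NR4A3 (edgeR adjusted p = 0.991), which do not show that the 2 classes differed alike, because the spleen sums of cytotoxic T/NK cells held 10 and 4 UMIs of these genes.

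Other measures moved with tissue in the same cells. The summed stress list, of heat shock genes and ATF3, was at 3955 and 3766 CPM in meningeal mature B cells, against 862 and 885 CPM in spleen mature B cells, with 5 of its 6 genes listed. In cytotoxic T/NK cells it was at 4207 and 3960.0 CPM in meninges, against 1339 and 1612 CPM in spleen. Meningeal small pre-B cells held more of it, at 6934 and 5045 CPM, and less NR4A1, at 69.4 and 44.1 CPM, than meningeal mature B cells. The list was also summed in germinal centre B, plasma and myeloid cells. Those values are not shown, so no relation of the list to NR4A1 over classes is given. The part of this list in the NR4A differences was not tested, and the tissue and its handling cannot be told apart. Stromal markers stood at 311 and 17.1 CPM over all meningeal cells, against 1.3 and 1.0 CPM over all spleen cells, but at 1.95 and 1.29 CPM in meningeal mature B cells, against 0.282 and 0.735 CPM in spleen mature B cells. The erythroid genes were at 48.0 and 40.8 CPM in meningeal mature B cells, against 21.4 and 23.6 CPM in spleen mature B cells. The endothelial genes were at 53.9 and 53.3 CPM in the meningeal cells, against 62.2 and 53.2 CPM in the spleen cells.

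Germinal centre B cells and plasma cells had fewer than 50 cells in some channel and were tested with a minimum of 20 cells, a choice made after the cell numbers were seen. Germinal centre B cells, which mutate and select antigen receptors, had low levels in both tissues. NR4A1 was at 33.2 and 33.9 CPM in 45 and 51 meningeal cells, against 3.36 and 2.11 CPM in 440 and 523 spleen cells (log2 fold change 3.58 ± 0.48, edgeR adjusted p = 0.00756). NR4A2 was at 102 and 25.4 CPM in meninges, against 2.35 and 1.76 CPM in spleen (log2 fold change 4.92 ± 0.65, edgeR adjusted p = 0.00711). In meninges channel 1, 29 of its 37 UMIs came from 1 cell. Of 7925 genes tested 0.644% passed, all of them higher in meninges. Neither call held without spleen channel 2, where the edgeR adjusted p was 0.930 for both, and that of NR4A1 did not hold without spleen channel 1, at an edgeR adjusted p of 0.728. NR4A3 had 14 meningeal UMIs, against 1 spleen UMI, a ratio of the summed levels of 114 with an exact 95% counting interval of 17.3 to 4816. The tissue differences of NR4A1 and NR4A2 in germinal centre B cells minus those in mature B cells were −0.58 ± 0.60 (edgeR adjusted p = 0.693) and −0.61 ± 0.64 (edgeR adjusted p = 0.696), among 8548 genes of which 6.94% passed, 1.87% higher and 5.07% lower.

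Plasma cells, which secrete antibody, showed the same direction for NR4A1 and NR4A2. NR4A1 was at 342 and 203 CPM in 24 and 33 meningeal cells, against 62.7 and 41.8 CPM in 21 and 38 spleen cells (log2 fold change 2.86 ± 0.42, edgeR adjusted p = 0.00679). NR4A2 was at 130.1 and 197 CPM in meninges, against 39.9 and 30.4 CPM in spleen (log2 fold change 2.66 ± 0.36, edgeR adjusted p = 0.00458). Of 2932 genes tested 5.70% passed, 5.12% higher and 0.580% lower. NR4A3 had 17 UMIs in meninges and none in spleen, so that it was at least 3.81-fold higher in meninges, taking a floor of 3 counts over the spleen group. This bound takes the 17 meningeal UMIs as exact and does not cover their counting error. Against the tissue difference of mature B cells that of plasma cells was −1.27 ± 0.47 for NR4A1 (edgeR adjusted p = 0.153) and −2.77 ± 0.64 for NR4A2 (edgeR adjusted p = 0.00729), where 4.25% of 8548 genes passed, 2.35% higher and 1.90% lower. The call of NR4A2 did not hold without spleen channel 1 (edgeR adjusted p = 0.0886) or without spleen channel 2 (edgeR adjusted p = 0.135).

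Non-cytotoxic T cells and myeloid cells were too few in spleen for a test, with 18 and 31 T cells and 8 and 15 myeloid cells. In non-cytotoxic T cells the meningeal level over the spleen level was 9.74 for NR4A1 (exact 95% counting interval 1.68 to 392) and 42.7 for NR4A2 (11.8 to 354), from 1 and 2 spleen UMIs. NR4A3 was at least 6.19-fold higher in these meningeal cells. In myeloid cells the ratio was 22.1 for NR4A1 (6.09 to 182), from 2 spleen UMIs. NR4A2 was at least 10.7-fold and NR4A3 at least 7.57-fold higher in meningeal myeloid cells, since spleen had no UMI of either. These intervals and floors cover counting error only, the floors that of the spleen counts alone, and compare the channels, not the tissues.

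The share of cells with an NR4A UMI also lay apart between tissues when every cell was thinned to 1000 UMIs. In mature B cells NR4A1 was found in 31.4% ± 2.5 of meningeal cells and 3.42% ± 0.30 of spleen cells, NR4A2 in 27.3% ± 2.6 and 1.22% ± 0.23, and NR4A3 in 16.9% ± 0.90 and 0.410% ± 0.137 (SD, n = 2 channels each). In cytotoxic T/NK cells NR4A2 was found in 44.6% ± 0.37 of meningeal cells and 3.65% ± 0.42 of spleen cells. In the same class NR4A1 was found in 6.37% ± 0.71 of meningeal cells and 0.152% ± 0.216 of spleen cells. NR4A3 was found in 12.1% ± 0.21 of meningeal cells, and in 0 of 228 and 0 of 328 spleen cells, which allows shares of up to 1.60% and 1.12% (exact 95% interval). An exact two-sided permutation test over 2 channels against 2 gave p = 0.333 for each of these 6 shares, the smallest p this design allows. Thinning left out 74 and 92 meningeal mature B cells, against 1285 and 981 spleen mature B cells. Over all mature B cells, including those left out, the median was 4488 and 4528 UMIs in meninges, against 1146 and 2048 UMIs in spleen. Unthinned, 55.71% and 60.02% of meningeal mature B cells held NR4A1, against 6.45% and 5.26% of spleen mature B cells. For comparison, NR4A1 was found in 7.06% and 2.03% of thinned meningeal small pre-B cells, whose median before thinning was 2887.5 and 2752.5 UMIs. The NR4A1 share of meningeal cytotoxic T/NK cells, 5.87% and 6.86% by channel, lay between these. The part of free RNA in these shares was not tested, and they are not assigned to expression by either class.

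Within macaque meninges the 3 members did not follow the same order over cell classes. NR4A1 was highest in mature B cells (548 ± 22 CPM, SD, n = 2) and myeloid cells (451 ± 74), followed by plasma cells (273 ± 98). It was lower in cytotoxic T/NK cells (81.1 ± 13.8), cycling pro-B and large pre-B cells (72.4 ± 1.5), non-cytotoxic T cells (58.0 ± 1.3), small pre-B cells (56.7 ± 17.9) and germinal centre B cells (33.6 ± 0.5). Plasma cells and cytotoxic T/NK cells did not overlap, while the channels of small pre-B cells overlapped those of non-cytotoxic T cells. The part of free RNA in these lower NR4A1 levels was not tested. NR4A2 was highest in cytotoxic T/NK cells (767 ± 29), followed by mature B cells (530.0 ± 32.9) and non-cytotoxic T cells (508 ± 91), whose channels overlapped. Below these came myeloid cells (328 ± 30), plasma cells (164 ± 48), germinal centre B cells (63.9 ± 54.4), small pre-B cells (25.4 ± 0.3) and pro-B and large pre-B cells (18.8 ± 3.7). Mature B cells were ranked here as a whole. Those without a UMI of IGHM, the immunoglobulin M heavy chain gene, held 1004 and 1107 CPM of NR4A2, above cytotoxic T/NK cells. Those with an IGHM UMI lay below cytotoxic T/NK cells. NR4A3 was highest in mature B cells (280.1 ± 29.0) and myeloid cells (229 ± 25), followed by cytotoxic T/NK cells (156 ± 3) and non-cytotoxic T cells (110.0 ± 43.7). Plasma cells (27.8 ± 23.6), germinal centre B cells (19.8 ± 24.02) and small pre-B cells (16.6 ± 0.3) overlapped at the low end, and pro-B and large pre-B cells held 1 UMI of NR4A3 in all.

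Early B stages stood well below mature B cells for all 3 genes. In small pre-B cells, 177 and 151 cells that carry the RAG recombinase and rearrange light chain genes, NR4A1 was at 69.4 and 44.1 CPM, against 533 and 564 CPM in mature B cells. The log2 fold change of small pre-B over mature B cells was −3.52 ± 0.14 for NR4A1 (edgeR adjusted p = 1.79e-23), −4.65 ± 0.20 for NR4A2 (edgeR adjusted p = 8.03e-23) and −4.35 ± 0.25 for NR4A3 (edgeR adjusted p = 2.51e-18). Of 10441 genes 33.0% passed in this contrast, 15.1% higher and 17.9% lower. In pro-B and large pre-B cells, of which 28 and 25 were gated and which were tested with the lower cell minimum, the values were −3.08 ± 0.23 for NR4A1 (edgeR adjusted p = 4.27e-13) and −4.96 ± 0.31 for NR4A2 (edgeR adjusted p = 7.72e-15), where 37.8% of 8548 genes passed, 18.2% higher and 19.6% lower. Germinal centre B cells were lower than mature B cells by −4.14 ± 0.26 for NR4A1, −3.15 ± 0.23 for NR4A2 and −3.95 ± 0.37 for NR4A3 on the log2 scale, with edgeR adjusted p of 1.91e-14, 8.42e-13 and 3.72e-10. In that contrast 29.7% of genes passed, 15.5% higher and 14.2% lower. The germinal centre sizes rest on single meningeal channels, with −4.65 for NR4A2 and −3.24 for NR4A3 without channel 1, and −2.41 and −6.63 without channel 2, all past the threshold. Plasma cells differed for NR4A2 (−0.96 ± 0.20, edgeR adjusted p = 0.000234) and NR4A3 (−2.71 ± 0.39, edgeR adjusted p = 1.24e-06), where 31.8% of genes passed, 15.7% higher and 16.1% lower. The plasma value of NR4A3 was −4.18 without meningeal channel 1 and −1.78 without meningeal channel 2. The plasma value of NR4A1 was −0.32 ± 0.17 (edgeR adjusted p = 0.1697).

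T and NK cells differed from mature B cells in opposite directions by gene. In cytotoxic T/NK cells NR4A1 was lower than in mature B cells (log2 fold change −2.77 ± 0.07, edgeR adjusted p = 3.08e-31), as was NR4A3 (−0.86 ± 0.08, edgeR adjusted p = 2.60e-12). NR4A2 was higher there (0.52 ± 0.09, edgeR adjusted p = 9.04e-06), at 746 and 788 CPM, against 507 and 553 CPM in mature B cells. In this contrast 50.8% of 10441 genes passed, 27.7% higher and 23.1% lower. The direction for NR4A2 holds for mature B cells as a whole. Mature B cells without an IGHM UMI were at 1004 and 1107 CPM, above cytotoxic T/NK cells, and those with an IGHM UMI lay below. In non-cytotoxic T cells NR4A1 was lower (−3.12 ± 0.15, edgeR adjusted p = 1.67e-20) and NR4A3 was lower (−1.22 ± 0.17, edgeR adjusted p = 1.15e-07), while NR4A2 stood at 0.06 ± 0.11 (edgeR adjusted p = 0.755), with 26.0% of genes passed. This value of NR4A3 was −1.88 without meningeal channel 1 and −0.89 without meningeal channel 2. Myeloid cells were lower than mature B cells for NR4A2 (−0.58 ± 0.10, edgeR adjusted p = 1.01e-05), where 49.1% of genes passed, 26.0% higher and 23.2% lower. The myeloid value of NR4A3 was −0.17 ± 0.10 (edgeR adjusted p = 0.158). That of NR4A1 was −0.17 ± 0.07 (edgeR adjusted p = 0.0402), and it turned to 0.17 when cells were gated after thinning.

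Each gene's share of a class's NR4A UMIs describes the same pattern without a test. In meningeal cytotoxic T/NK cells NR4A2 gave 76.4% and 76.3% of all NR4A UMIs, and in non-cytotoxic T cells 74.1% and 76.5%, against 39.0% in both channels of mature B cells. NR4A1 gave 7.31% and 8.80% of them in cytotoxic T/NK cells, against 41.0% and 39.8% in mature B cells. In myeloid cells NR4A1 gave 41.9% and 47.3%, NR4A2 gave 32.2% and 32.8% and NR4A3 gave 25.9% and 19.9%. In spleen, cytotoxic T/NK cells again had mostly NR4A2 (88.9% and 84.4%), against 24.1% and 26.1% in mature B cells, where NR4A1 gave 67.0% and 66.9%. The spleen shares of NR4A2 in cytotoxic T/NK cells rest on 36 and 64 NR4A UMIs, with exact 95% binomial intervals of 73.9% to 96.9% and 73.1% to 92.2%.

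**Figure D2:**
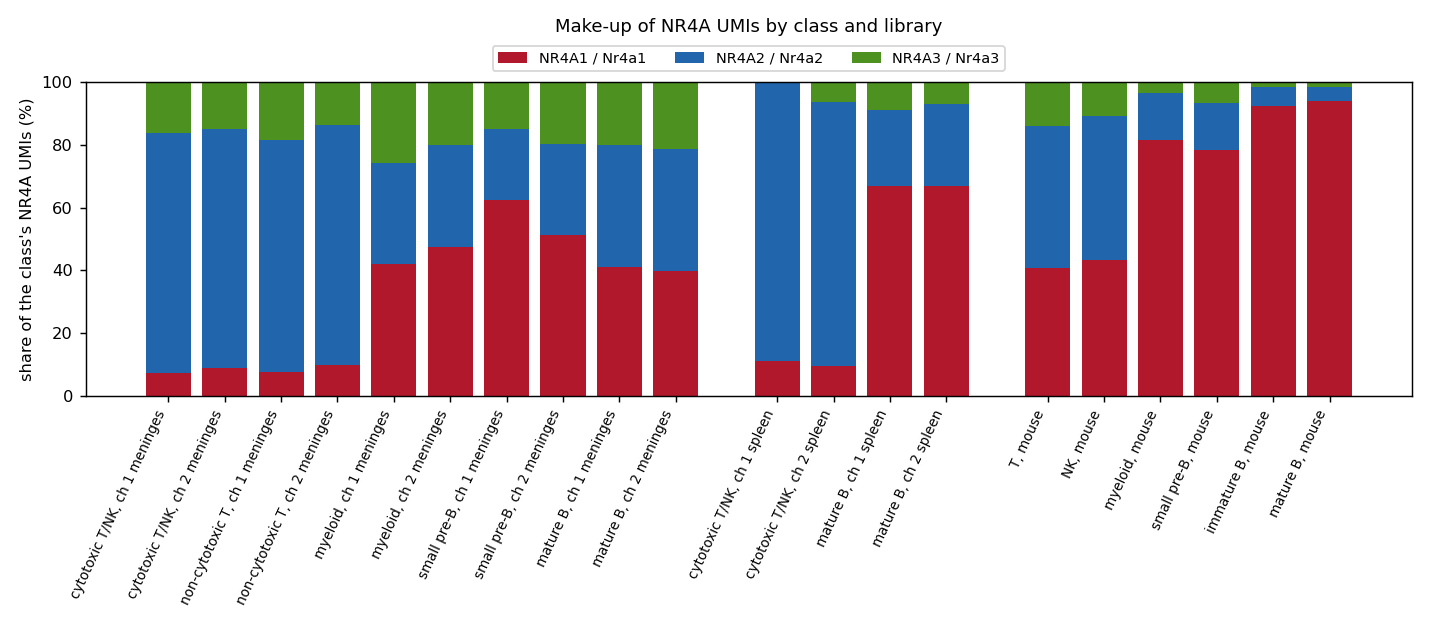
Share of each NR4A gene among a class's NR4A UMIs (%). Each bar is 1 class in 1 library, with macaque meninges left, macaque spleen in the middle (ch: channel) and mouse at the right; NR4A2 fills 76.4% and 76.3% of the meningeal cytotoxic T/NK bars and Nr4a1 fills 94.2% of the mouse mature B bar.

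Macaque mature B cells were also split by whether a cell held a UMI of IGHM, the immunoglobulin M heavy chain gene, and of FCER2, the CD23 gene of follicular cells. In meningeal cells without an IGHM UMI, NR4A2 was at 1004 and 1107 CPM, against 482 and 516 CPM in IGHM+ FCER2- cells and 236 and 235 CPM in IGHM+ FCER2+ cells. NR4A1 was at 815 and 792 CPM in the IGHM- cells, against 527 and 569 CPM in IGHM+ FCER2- cells and 372 and 409 CPM in IGHM+ FCER2+ cells. NR4A3 was at 364 and 458 CPM in the IGHM- cells, against 289 and 301 CPM and 175 and 197 CPM in the other two. The 3 kinds of cell did not overlap in any NR4A gene, which was not counted over all genes. These are descriptions from 215 to 465 cells per channel. In spleen the order was the same for NR4A2, at 31.5 and 26.0 CPM in IGHM- cells, 18.4 and 12.9 CPM in IGHM+ FCER2- cells and 4.47 and 5.42 CPM in IGHM+ FCER2+ cells. NR4A1 did not keep that order in spleen, at 57.2 and 22.9 CPM in IGHM- cells, against 41.9 and 36.1 CPM in IGHM+ FCER2- cells. Nor did NR4A3, at 5.84 and 4.16 CPM in IGHM- cells, 3.87 and 2.06 CPM in IGHM+ FCER2- cells and 6.07 and 3.91 CPM in IGHM+ FCER2+ cells, from 4 to 19 UMIs per channel.

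**Figure D3:**
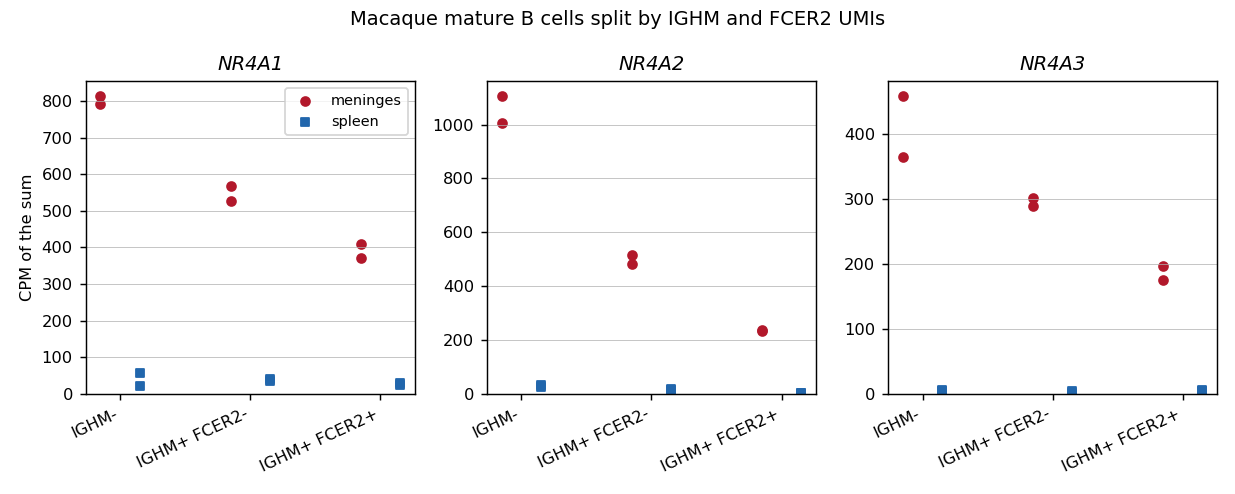
Macaque mature B cells split by IGHM and FCER2. Each point is the CPM of 1 channel's summed cells, meninges as circles left of spleen as squares, with axes from 0; meningeal NR4A2 lies at 1004 and 1107 CPM in IGHM- cells and at 236 and 235 CPM in IGHM+ FCER2+ cells.

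In the mouse library, with no replicate, Nr4a1 was low in the early B stages and higher in the later ones. It was at 19.3 CPM in pro-B cells (823 cells, exact 95% Poisson interval 16.5 to 22.4), 6.81 CPM in large pre-B cells (355 cells) and 15.2 CPM in small pre-B cells (2307 cells). It was at 42.4 CPM in Ms4a1+ cells that still held Rag UMIs (889 cells), 135.7 CPM in immature B cells (1818 cells, 128.8 to 142.9) and 372 CPM in mature B cells (776 cells, 355 to 390). The intervals of the last 3 stages did not overlap each other. Both the share of cells and the UMIs per positive cell were higher at the late stages, since Nr4a1 was found in 12.3% of pro-B cells with 1.70 UMIs each and in 51.5% of mature B cells with 4.56 UMIs each. Thinned to 1000 UMIs, the shares were 1.82% in pro-B cells, 1.60% in small pre-B cells, 8.26% in immature B cells and 24.2% in mature B cells.

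Nr4a2 and Nr4a3 stayed low in every mouse B stage. Nr4a2 was at 3.25 CPM in pro-B cells, 2.94 CPM in small pre-B cells, 8.94 CPM in immature B cells and 16.9 CPM in mature B cells. Nr4a3 was at 1.79 CPM in pro-B cells, 1.27 CPM in small pre-B cells, 2.26 CPM in immature B cells and 5.92 CPM in mature B cells. Nr4a1 gave 94.2% of the NR4A UMIs of mouse mature B cells, where NR4A1 gave 41.0% and 39.8% in macaque meningeal mature B cells. The species differ also in reference, age and number of cells loaded, so that this contrast was not tested.

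Mouse T and NK cells held the highest Nr4a2 and Nr4a3. T cells (1162 cells) had 154 CPM of Nr4a1, 173 CPM of Nr4a2 and 52.8 CPM of Nr4a3. NK cells (79 cells) had 225 CPM of Nr4a1, 238 CPM of Nr4a2 and 55.3 CPM of Nr4a3. Myeloid cells (62 cells) had 140.3 CPM of Nr4a1 (exact 95% Poisson interval 119.9 to 163.1), 25.7 CPM of Nr4a2 and 5.81 CPM of Nr4a3. Nr4a2 thus gave 45.4% of the NR4A UMIs of T cells, 45.9% of those of NK cells and 4.29% of those of mature B cells. The gate found 2 plasma cells, with no NR4A UMI. The level of Nr4a1 depended on the gate for myeloid cells, at 252 CPM with a relaxed exclusion of other lineages, for mature B cells, at 263 CPM when gated after thinning, and for the Rag+ Ms4a1+ cells, at 74.7 CPM when gated after thinning.

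**Figure D4:**
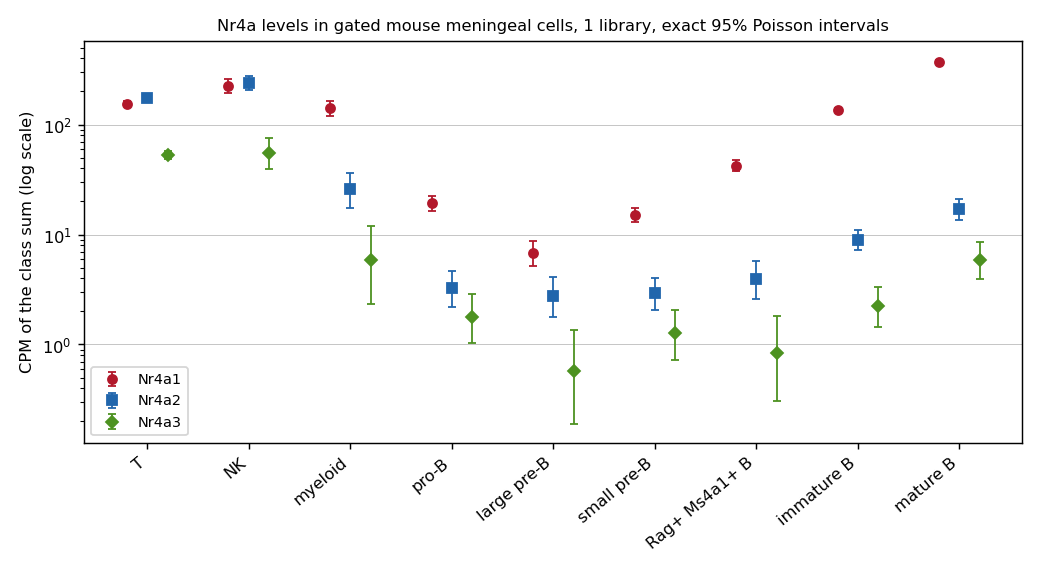
Nr4a levels in mouse meningeal cell classes. Each point is the CPM (log scale) of a class sum in the single library with its exact 95% Poisson interval, which covers counting error only; Nr4a1 is at 15.2 CPM in small pre-B cells and at 372 CPM in mature B cells, while Nr4a2 is at 173 CPM in T cells and 16.9 CPM in mature B cells.

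Detection of the members in the same cells is given as a description. In both macaque meningeal channels, each member was more frequent in mature B and cytotoxic T/NK cells holding another member than in those without it. Some pairs in other classes did not keep this direction. In thinned meningeal mature B cells of macaque, NR4A2 was found in 47.2% and 43.9% of cells with NR4A1, against 16.3% and 21.8% of cells without it. In meningeal cytotoxic T/NK cells it was found in 58.2% and 65.4% of cells with NR4A1, against 43.4% and 43.3% of cells without it. At least 1 member was found in 45.5% and 52.1% of thinned meningeal mature B cells, against 4.82% and 4.35% of spleen mature B cells. The corresponding shares in cytotoxic T/NK cells were 50.5% and 50.9% in meninges, against 3.95% and 3.66% in spleen. Meningeal small pre-B cells held any member in 11.2% and 6.08% of cells. In mouse T cells Nr4a2 was found in 15.8% of cells with Nr4a1, against 13.4% of cells without it. In meningeal myeloid cells NR4A3 was found in 4.0% and 15.7% of cells with NR4A1, against 17.8% and 11.1% of cells without it, so the channels lay in opposite directions. In mouse mature B cells Nr4a2 was found in 3 of 188 cells with Nr4a1 (1.60%), against 3 of 588 without it (0.510%).

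A list of 39 genes around the family was set beside the members. It was made of upstream factors, dimer partners, early genes of the same signals and genes reported under NR4A control in lymphocytes. The last group was not divided by the direction of the reported control, so its counts do not measure NR4A activity. In mature B cells 32 of them were tested between tissues, of which 19 were higher in meninges, 1 was lower and 12 did not pass, where 21.7% of all genes tested were higher and 17.9% lower, with a median log2 fold change of 0.98, against −0.01 over all genes tested. All 8 tested early genes were higher, among them FOSB (431 and 409 CPM in meninges, against 11.6 and 10.0 CPM in spleen, log2 fold change 5.43 ± 0.12), FOS (1489 and 1257 CPM, against 30.6 and 48.2 CPM, 5.25 ± 0.16) and EGR1 (143 and 149 CPM, against 9.59 and 5.15 CPM, 4.48 ± 0.15). These encode transcription factors made within minutes of a stimulus, and their edgeR adjusted p were 3.53e-21, 1.42e-18 and 1.25e-17. Of 14 upstream factors 4 were higher and 1, the CREB coactivator gene CRTC3, was lower, and of 9 genes reported under NR4A control 7 were higher and none lower. The single tested dimer partner, RXRB, did not pass.

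In cytotoxic T/NK cells 31 genes of the list were tested, of which 11 were higher in meninges and 6 lower, where 16.1% of all genes tested were higher and 10.9% lower, with a median log2 fold change of 0.24, against −0.01 over all genes tested. Of 7 early genes 6 were higher, led by FOS (1481 and 1506 CPM in meninges, against 48.6 and 47.9 CPM in spleen, log2 fold change 5.20 ± 0.12), FOSB (558 and 617 CPM, against 19.1 and 23.3 CPM, 5.02 ± 0.16) and CD83 (279 and 325 CPM, against 23.6 and 13.5 CPM, 4.30 ± 0.19). Their edgeR adjusted p were 3.64e-14, 2.24e-12 and 7.32e-11. EGR1 stood at 15.3 and 18.0 CPM in meninges, against 1.47 and 14.7 CPM in spleen (edgeR adjusted p = 0.0719). Of 13 upstream factors 2 were higher and 4 lower, of 8 genes reported under NR4A control 3 were higher and 2 lower, and none of the 3 RXR genes passed. In germinal centre B cells 4 of 27 genes passed and in plasma cells 3 of 10, all early genes and all higher in meninges, where 0.644% and 5.70% of all genes tested passed. In germinal centre B cells they were led by FOSB (log2 fold change 5.86 ± 0.50, edgeR adjusted p = 0.000356) and in plasma cells by FOS (5.97 ± 0.24, edgeR adjusted p = 1.14e-05). The germinal centre calls rest on spleen channel 2, without which edgeR called 0 of 5247 genes, 229 of them at an unadjusted p under 0.05.

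**Figure D5:**
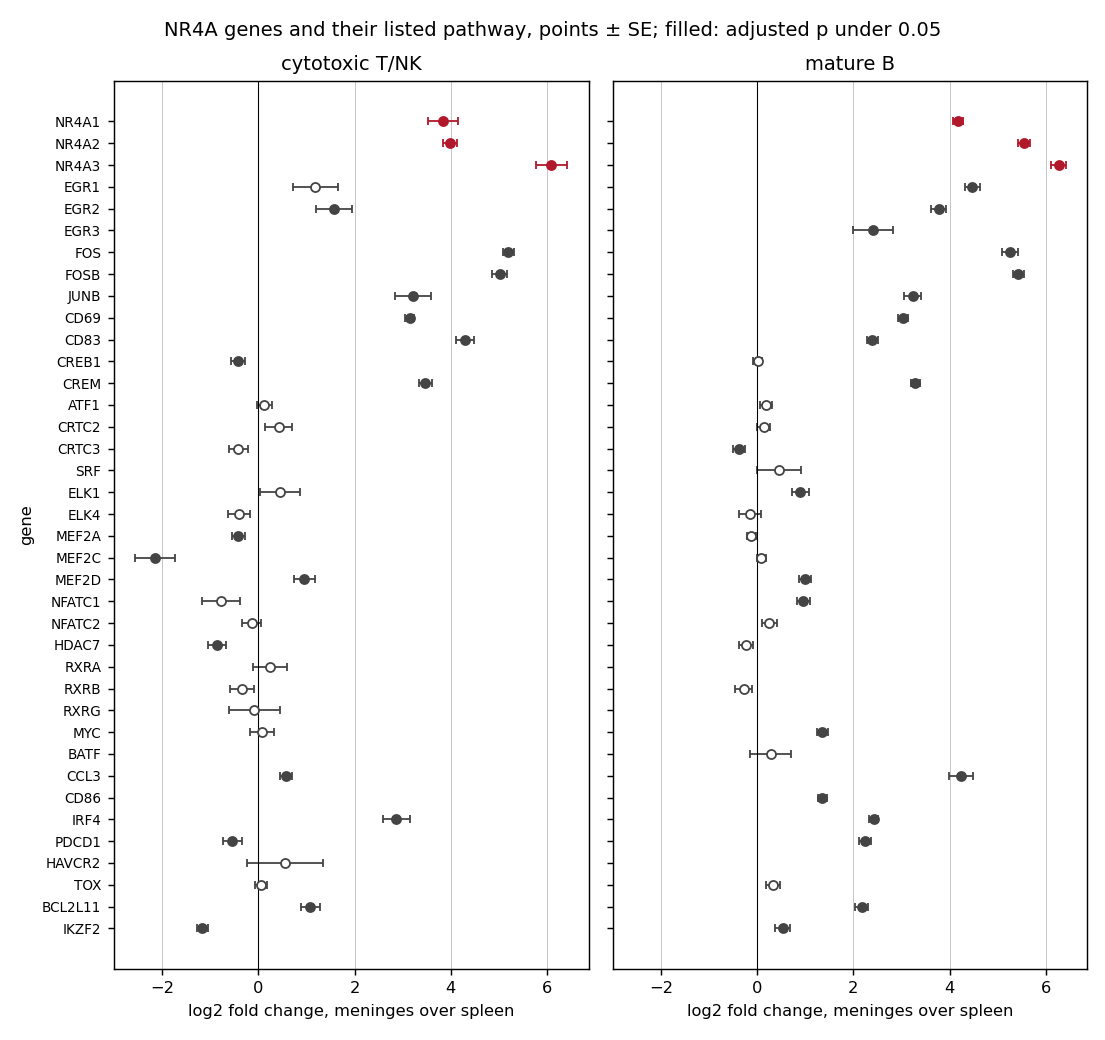
Tissue differences of the NR4A genes and the listed genes around them. Points are log2 fold changes of meninges over spleen with SE bars in cytotoxic T/NK cells (left) and mature B cells (right), filled where the edgeR adjusted p is under 0.05; NR4A1, NR4A2 and NR4A3 (top rows) lie at 3.83, 3.98 and 6.08 in cytotoxic T/NK cells and at 4.17, 5.55 and 6.27 in mature B cells.

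The genes whose levels followed each member most closely were ranked by Pearson correlation of log2(CPM + 1), over 17 class-by-channel sums of macaque for 3875 genes. These points share libraries and tissues, so the values are descriptions. NR4A1 was followed by USP36 (r = 0.969), RASGEF1B (0.962), the stress factor gene DDIT3 (0.916), NR4A3 (0.906) and the autophagy receptor gene SQSTM1 (0.886). NR4A2 was followed by an unnamed gene, ENSMMUG00000020050 (0.950), and by ZFP36 (0.926), which encodes a protein that destabilises cytokine transcripts, GPX4 (0.923), SRGN (0.923) and FOSB (0.913). NR4A3 was followed by ZFP36 (0.941), the cell cycle inhibitor gene CDKN1A (0.936), FOS (0.933), FOSB (0.932) and the histone demethylase gene KDM6B (0.928). Over 9 mouse classes and 4183 genes Nr4a1 was followed by Macf1 (0.981), Egr1 (0.970), Sorl1 (0.967), P2ry10 (0.956) and Ier5 (0.954). Nr4a2 was followed by Zfp36l2 (0.988), Cd82 (0.987), Nr4a3 (0.987), Hcst (0.981) and Arhgap9 (0.978), and Nr4a3 by Hcst (0.996), H2-T22 (0.990), Nr4a2 (0.987), Cd82 (0.984) and Zfp652 (0.977). In mouse Nr4a1 correlated at 0.736 with Nr4a2 and 0.691 with Nr4a3, below the 0.987 between Nr4a2 and Nr4a3. In macaque NR4A1 correlated at 0.748 with NR4A2 and 0.906 with NR4A3, and NR4A2 correlated at 0.886 with NR4A3.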

How the data were processed

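For each library the authors deposited a table of raw UMI counts, with genes in rows and cell barcodes in columns. Per the submitters' processing notes the tool was Cell Ranger and the build mm10, also for macaque, although those tables list macaque gene identifiers. Which macaque reference was used is not stated in the sources read here. The deposited counts are not normalized, and the mouse table was used without the hashtag assignment of cells to ages.

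The cell filter required 300 genes or more and no more than 10% of UMIs from mitochondrial genes. Cells were assigned to exclusive classes by marker UMIs, and a cell with UMIs of another lineage's excluded genes entered no class. This stands in for a doublet caller, and none was run. The members and gene lists were chosen with earlier results of these data known. UMIs were summed per channel and class, and classes with at least 50 cells in every channel compared were tested with edgeR 4.0.16 in R 4.3.3 (quasi-likelihood test, TMM scaling, filterByExpr, Benjamini-Hochberg adjustment over all genes tested, threshold 0.05), without a block between tissues and with the channel as a block between classes. SE values are the absolute unshrunken log2 coefficient of the fit over the square root of the F statistic. The printed log2 fold changes are those edgeR reports, which it shrinks slightly at low counts. Where a sum holds few UMIs, such an SE can fall below the counting error. Library totals were 128.09 M UMIs in mouse, 19.02 and 19.76 M in meninges and 20.11 and 21.99 M in spleen. Shares were compared after thinning each cell to 1000 UMIs. The tests were checked on simulated counts. All 3 members were named in every class. Of the list around them, the 3 genes with the largest absolute change past the threshold were named, and other named genes were chosen after their values were seen. Genes most like a member were the 5 with the highest correlation among genes whose log2(CPM + 1) averaged 5 or more. Alternatives were DESeq2 1.42.0, RLE size factors, no filter on low counts, stricter cell filters, relaxed exclusion, gates and sums after thinning, leaving out the 5% of cells with most UMIs, blocks, and leaving out each channel. Python 3.11.15 with scipy 1.17.1 gave the exact intervals and permutation tests.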

Additional observations from a re-analysis of the deposited data

Results flagged for a closer look

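The tissue difference of NR4A2 differed between cell classes by a test of that difference itself. In cytotoxic T/NK cells its log2 fold change of meninges over spleen minus that in mature B cells was −1.50 ± 0.24 (edgeR adjusted p = 1.39e-05). In either class both meningeal channels lay above both spleen channels, a split not counted over all genes. The difference between the log2 fold changes was between −1.83 and −1.10 over 9 alternatives.

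In plasma cells the same difference was −2.77 ± 0.64 (edgeR adjusted p = 0.00729). It rests on 15 UMIs of NR4A2 in the spleen plasma cells, and its call did not hold without either spleen channel, at −2.84 and −2.75 on the log2 scale.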

How the results depend on the processing

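The tissue differences of all 3 genes in mature B cells and in cytotoxic T/NK cells kept their direction and their call under every alternative run. Over these, mature B cells ranged from 3.85 to 4.32 for NR4A1, 5.12 to 5.63 for NR4A2 and 5.39 to 6.60 for NR4A3 on the log2 scale. Cytotoxic T/NK cells ranged from 3.64 to 5.49 for NR4A1, 3.76 to 4.43 for NR4A2 and 5.21 to 12.03 for NR4A3, the last without spleen channel 2, which leaves no UMI in spleen and so no bound. Small pre-B, cytotoxic T/NK and non-cytotoxic T cells kept their calls against mature B cells, except NR4A2 in non-cytotoxic T cells. That value was −0.011 without a filter on low counts, −0.28 to 0.17 with a channel left out and 0.58, past the threshold, with gates after thinning.

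The myeloid value of NR4A1 against mature B cells missed the threshold at −0.14 with RLE size factors, −0.22 without a filter on low counts, −0.17 without the replicate block, −0.14 with relaxed exclusion and −0.087 without the cells with most UMIs. It was 0.17 with gates after thinning and −0.39 to −0.12 with a channel left out. The myeloid value of NR4A3 passed at −0.21 without a filter and −0.52 without the cells with most UMIs, and ranged from −0.46 to −0.047 with a channel left out. The cytotoxic T/NK tissue difference minus that of mature B cells was 0.52 for NR4A1 and 1.60 for NR4A3 with gates after thinning, and −0.61 to 0.053 and −1.35 to 5.71 with a channel left out. The cause of these changes was not tested.

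The classes tested with fewer cells were less stable. With a channel left out, germinal centre B cells ranged from 3.30 to 3.93 for NR4A1 and 3.56 to 5.60 for NR4A2 between tissues, and their difference from mature B cells in this ranged from −2.05 to 0.11 for NR4A2. Plasma cells ranged from −0.90 to 0.13 for NR4A1 against mature B cells, and their tissue differences minus those of mature B cells ranged from −1.74 to −0.80 for NR4A1 and −2.97 to −2.61 for NR4A2. The plasma tissue difference of NR4A1 was 2.49, short of the threshold, on thinned sums. Without a filter, the plasma values of NR4A1 were −0.48 against mature B cells and −1.30 for the difference between tissue differences, both past the threshold.

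Counts of genes called moved more. Between tissues, mature B cells had 4017 calls, 2304 with DESeq2 and 1410 on thinned sums, and 2766 to 4112 with a channel left out. Cytotoxic T/NK cells had 2444 calls, 1134 with DESeq2, 1293 on thinned sums and 1444 to 2205 with a channel left out. Germinal centre B cells had 51 calls, 137 without a filter, 12 on thinned sums, 87 without the cells with most UMIs and 0 to 209 with a channel left out, the 0 being by edgeR without spleen channel 2. Plasma cells had 167 calls, 103 with DESeq2, 333 without a filter, 33 on thinned sums and 131 to 340 with a channel left out. Against mature B cells, germinal centre B cells had 2539 calls, 1658 without the cells with most UMIs and 1546 to 2490 with a channel left out. Plasma cells had 2716, and 1569 to 2773 with a channel left out, and small pre-B cells 3447, and 2278 to 3389. For differences between tissue differences, cytotoxic T/NK cells had 731 calls, 1173 with gates after thinning and 237 to 663 with a channel left out, germinal centre B cells 593 and 329 to 446, and plasma cells 363 and 200 to 288.

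Channel numbers do not pair the samples per the labels. Same-numbered channels' deviations correlated at −0.16 in mature B cells and −0.02 in cytotoxic T/NK cells. With the channel number as a replicate block the tissue differences in mature B cells were 4.18, 5.54 and 6.26 for NR4A1, NR4A2 and NR4A3, with 4127 calls, and crossing the numbers, chosen after seeing the data, gave 4371 calls. The block changed no call of an NR4A gene between tissues. Spleen sums of 0 to 22 NR4A UMIs in all classes but mature B, and of 86 for NR4A2 in cytotoxic T/NK cells, limit the precision of every fold that uses them.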
